A study of Homo sapiens with 16 samples.

Results

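All-trans retinoic acid (ATRA) was added to Corin in the human acute myeloid leukaemia line SKNO-1, and the libraries with both agents were compared with the libraries given Corin alone. The members are 4 of the 16 RNA libraries in the series, 2 with ATRA plus Corin and 2 with Corin, taken by their labels with no use of measured values. SKNO-1 cells carry the RUNX1-RUNX1T1 fusion and were grown in medium with GM-CSF at 10 ng/mL. Both groups had Corin at 0.1 µM for 24 h, and the combination also had ATRA at 0.1 µM for the same 24 h. No library without Corin enters the comparison, so it shows what ATRA adds in cells that all had Corin. The series also holds DMSO and ATRA alone in SKNO-1 and all 4 treatments in the monocytic line U-937, and total RNA was sequenced in every library.

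ATRA is the acid form of vitamin A and the ligand of the retinoic acid receptors RARA, RARB and RARG. These bind DNA as pairs with a retinoid X receptor at direct repeats of a short half-site, hold corepressors there without ligand and exchange them for coactivators when ligand binds. Corin inhibits the CoREST complex, in which the demethylase KDM1A (LSD1) and the deacetylases HDAC1 and HDAC2 remove active histone marks, and which the myeloid repressors GFI1 and GFI1B recruit. In myeloid leukaemia ATRA is known for driving differentiation of promyelocytic blasts, and LSD1 inhibition for releasing myeloid genes in other subtypes.

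The 4 libraries held 32.8 to 34.6 M estimated counts each. Values are CPM, counts relative to TMM-scaled library totals, given as library 1 and library 2 of each group. Fold changes are log2, ATRA plus Corin minus Corin, and a gene is called when edgeR's quasi-likelihood test over all genes gives a Benjamini-Hochberg adjusted p under 0.05. The labels do not say whether the 2 libraries of a group came from separate cultures, so p-values measure only the spread between these samples, which may be technical. Markers of the line were read first: RUNX1T1 had 129 and 110.1 CPM with both agents and 148 and 149 CPM with Corin, which counts fusion and normal transcripts together, KIT had 305 and 304 against 298 and 285 CPM, and MPO, CD33 and IL3RA were detected in all 4 libraries. CD34 was low, at 0.221 and 0.152 against 1.86 and 1.90 CPM.

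Of 17049 genes tested, 3862 were called higher with ATRA added (22.7% of those tested) and 3578 lower (21.0%). Scaling by library totals alone moved that split to 3085 higher and 4412 lower. Most calls were small, since 4729 of the 7440 called genes moved by less than 0.5. When a change of 1 or more was also required, 681 genes were higher (3.99%) and 263 lower (1.54%), so strong changes ran mostly upward. At an absolute change of at least 3 the count was 67 higher and 16 lower. Of the strongly changed genes, 499 of the rises and 181 of the falls were protein-coding, and 113 rises and 56 falls were lncRNAs. The median log2 fold change over all tested genes was 0.014. These are levels per library, so a change in the share of cells that express a gene and a change in RNA per cell cannot be told apart. The counts rest on a tight spread between 2 libraries a group, with 2 residual degrees of freedom: when the other 4 SKNO-1 libraries shared the fit, 1822 genes were called, 1816 of them among the 7440. Of the 944 strong genes 520 kept their call in that fit. Their fold changes rest on the same 4 libraries in both fits, so their direction could hardly change and is no support.

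**Figure D1:**
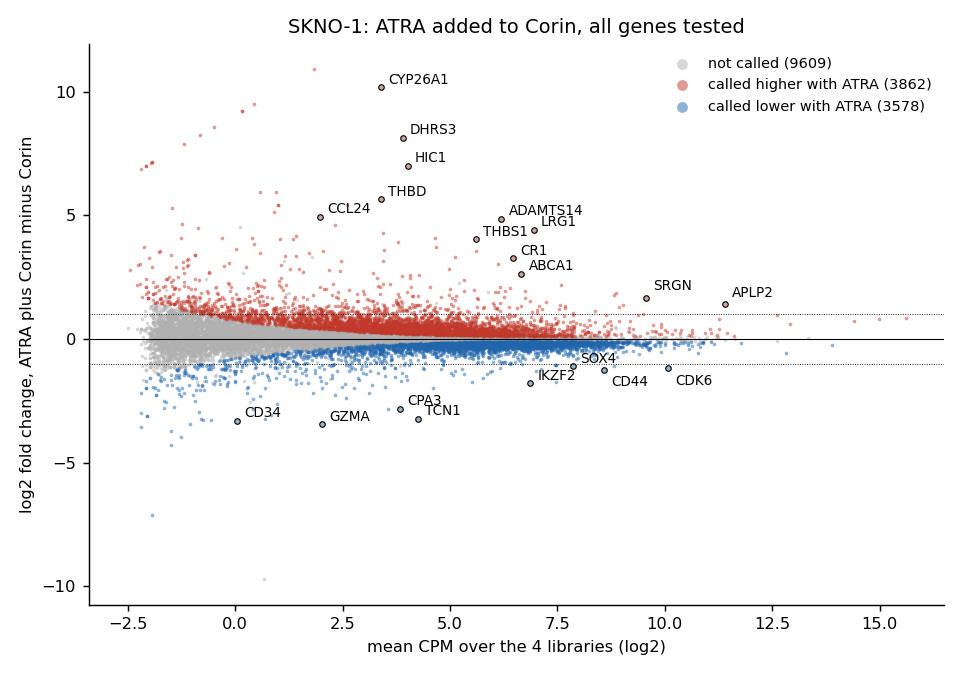
Each point is 1 of the 17049 genes tested in SKNO-1, with its mean CPM over the 4 libraries on a log2 axis (x) and its log2 fold change, ATRA plus Corin minus Corin (y); red and blue points were called higher and lower, and dotted lines mark an absolute change of 1. The upper side holds 67 genes past 3 and the lower side 16; points above about 6 at low CPM include genes with 0 counts in the Corin libraries, whose fitted value depends on the prior count and is no measure of size.

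Genes that clear retinoic acid and retinaldehyde were among the largest rises. CYP26A1, the cytochrome P450 that breaks retinoic acid down (chr10:93073475-93077885, GRCh38), had 20.1 and 21.98 CPM with both agents, and with Corin it had 1 count in library 1 and 0 in library 2. Over the groups that is 1360 counts against 1, a ratio of scaled counts of 1445 with an exact 95% interval from 259 to 57132.5, which covers counting error only. DHRS3, which reduces retinaldehyde to retinol (chr1:12567910-12618210), was at 29.5 and 29.97 CPM with both agents against 0.114 and 0.0891 CPM with Corin, a rise of 8.14 (SE 0.18, edgeR adjusted p 1.49e-20). No library of one group reached the other for either gene, which the choice of the largest rises required.

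Few other members of the retinoid metabolism list changed. Here and in the lists below, counts are to be read against the 22.7% of all genes called higher and 21.0% lower. A list near those shares shows no trait of its own. Of this list, 4 of 16 tested genes were called higher, near that share, and 1 lower. The median was 0.14 against 0.014 over all genes, and 14 further genes were too low to test. The count of falls was 2 or 3 under 10 alternatives, among them leaving out the first combination library or either Corin library (2 each). The other called rises were RDH13, a retinol dehydrogenase family member (13.8 and 13.4 against 6.66 and 6.77 CPM, 1.01), and RDH11 (0.17). RDH10, which makes retinaldehyde from retinol, was the fall called with all 4 libraries, at 16.6 and 15.97 CPM with both agents against 26.6 and 24.95 CPM with Corin, -0.66. ALDH1A1, ALDH1A2 and ALDH1A3, which make retinoic acid from retinaldehyde, were among the genes too low to test.

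Of the receptors, RARB and RARA rose. RARB had 2.37 and 2.13 CPM with both agents, 145 counts in all, and 0 counts in both Corin libraries, so it was at least 51.4-fold higher counting 3 over the Corin group as the floor. RARA was at 20.7 and 18.7 CPM with both agents against 8.77 and 7.75 CPM with Corin, a rise of 1.25 (SE 0.094). In both receptors the groups did not overlap. RARG was at 7.52 and 7.47 against 5.14 and 6.39 CPM, and its call at 0.38 was lost when transcript GC content was taken into account (adjusted p 0.997) and without either combination library or the first Corin library (adjusted p 0.0640, 0.0590 and 0.271). RXRA, the main myeloid partner, was not called at -0.085. Of the coregulators, the coactivator NCOA3 rose from 77.1 and 79.5 to 166 and 162 CPM (1.07), and the corepressor NRIP1 was called at -0.31 (with 8 libraries adjusted p 0.0532). In the whole list of receptors and coregulators 7 of 14 tested genes were higher and 3 lower; with the GC trend removed 4 were higher and 2 lower, and with 8 libraries in the fit 4 and 0.

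Genes known from textbooks as retinoic acid targets had the highest median of the lists described. Of these, 9 of 13 tested were called higher, all 9 by at least 1, and 2 were lower, with a median of 1.25. Beside CYP26A1, RARB, DHRS3 and RARA these were ASB2, a ubiquitin ligase subunit that rises in differentiating myeloid cells (19.05 and 19.9 CPM with both agents against 2.26 and 2.14 CPM with Corin, 3.14), PLAAT4, a phospholipase also called retinoic acid receptor responder 3 (10.1 and 9.81 against 1.20 and 1.07 CPM, 3.13), and TGM2, tissue transglutaminase (20.5 and 22.7 against 6.83 and 7.99 CPM, 1.55). CEBPE, a factor of granulocyte maturation, and ICAM1, an adhesion ligand, completed the 9 with 1.24 and 1.09. The 2 falls were CD38, the NAD glycohydrolase often used as an ATRA marker, at 300.4 and 295 against 387 and 384 CPM (-0.37), and NRIP1. CD38 was lower in both combination libraries than in either Corin library, and 9 members of the list were too low to test.

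Some promoters carried a direct repeat of the kind known from receptor binding. The 3 shown are strongly risen genes chosen for a match in their promoter. RARB and CYP26A1 are among the genes that went from no or almost no counts to a clear signal. Sequences are RefSeq windows on GRCh38.p14, from 250 bases before to 50 after an annotated start, 5′ to 3′ on the gene's strand; capitals mark 2 half-sites with 5 bases between them on either strand, called DR5. The half-site searched was AGGTCA, with the spelling AGTTCA counted as well, then GGGTCA as another form and lastly the spelling GGTTCA. RARB has 4 such windows in the table, and the match lies in the one at chr3:25428013-25428312 (+), with its first base 53 bases before the start.
RARB: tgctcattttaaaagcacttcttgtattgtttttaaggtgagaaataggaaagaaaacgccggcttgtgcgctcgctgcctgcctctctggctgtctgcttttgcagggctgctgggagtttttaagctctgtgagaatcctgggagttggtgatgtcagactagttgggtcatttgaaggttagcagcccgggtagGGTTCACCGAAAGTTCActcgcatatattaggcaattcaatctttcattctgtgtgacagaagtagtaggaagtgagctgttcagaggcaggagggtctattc
CYP26A1, at chr10:93073643-93073942 (+), has the repeat on the opposite strand, starting 90 bases before this start, and none in its other window.
CYP26A1: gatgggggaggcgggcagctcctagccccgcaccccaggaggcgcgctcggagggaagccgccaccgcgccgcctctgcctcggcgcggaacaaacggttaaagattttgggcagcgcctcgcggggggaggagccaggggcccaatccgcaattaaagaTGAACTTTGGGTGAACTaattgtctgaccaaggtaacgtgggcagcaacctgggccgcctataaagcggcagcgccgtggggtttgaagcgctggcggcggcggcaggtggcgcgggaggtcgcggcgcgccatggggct
BATF2 encodes a leucine zipper factor of macrophages; its window is chr11:64990228-64990527 (-) and its match begins 29 bases before the start.
BATF2: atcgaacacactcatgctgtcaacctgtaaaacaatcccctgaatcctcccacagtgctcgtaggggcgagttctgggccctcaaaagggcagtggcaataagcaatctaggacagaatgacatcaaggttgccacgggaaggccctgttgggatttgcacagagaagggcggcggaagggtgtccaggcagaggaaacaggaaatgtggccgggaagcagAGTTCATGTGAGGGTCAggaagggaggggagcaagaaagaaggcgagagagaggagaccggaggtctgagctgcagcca

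BATF2, named here for its match after its values were seen, was at 1.17 and 1.12 CPM with both agents and 0.0857 and 0.267 CPM with Corin (2.68). Among all 35116 windows, 31 held a DR5 (0.0883%) and 14 the same half-sites with 2 bases between them, DR2 (0.0399%). Of the genes that rose by at least 1, 373 had a window, 3 with a DR5 (0.804%) and 0 with a DR2; of 149 such genes that fell, 0 had either. Only 374 of the 681 strongly risen genes (54.9%) had a window, 373 once identifiers with the same symbol were merged, so these shares are void as a comparison and describe the matched genes alone. Windows with neither repeat were found for DHRS3, for RARA and for CHST15, which had 0 counts with Corin. That says only that these letters are absent there.

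The complex that Corin inhibits changed little at the RNA level. KDM1A was at 226 and 224 CPM with both agents and 271 and 264 CPM with Corin, called lower at -0.25, and HDAC1 and HDAC2 were called at 0.19 and -0.23. HDAC2 lost its call with the GC trend removed (adjusted p 0.4), and with all 8 SKNO-1 libraries in the fit neither deacetylase kept it (adjusted p 0.0676 and 0.0653). GFI1B, a repressor that recruits the complex, was the only member of the list past 1: it rose from 4.29 and 3.89 to 8.65 and 9.47 CPM (1.15), while its homolog GFI1 was not called at -0.062. In all, 6 of 18 members were higher and 7 lower, with a median of -0.067; with the GC trend removed 3 were higher and 7 lower, and with 8 libraries in the fit 2 and 3. The scaffold RCOR1 (with 8 libraries adjusted p 0.0877) and the repressor REST were among the falls, at -0.25 and -0.48.

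HIC1, a transcriptional repressor, was at 30.9 and 33.3 CPM with both agents against 0.229 and 0.267 CPM with Corin, 6.998 (SE 0.15, edgeR adjusted p 1.53e-20). THBD, thrombomodulin, was at 20.6 and 20.6 CPM with both agents against 0.457 and 0.356 CPM with Corin, 5.64 (SE 0.16). Each of these went from well under 1 CPM to over 20 CPM, with the libraries of a group close together. LRG1, a secreted glycoprotein of neutrophil granules, was at 237 and 235 CPM with both agents against 11.003 and 11.1 CPM with Corin, 4.42 (SE 0.051, adjusted p 1.04e-25). ADAMTS14, a procollagen protease, was at 137 and 146 CPM with both agents against 4.77 and 5.08 CPM with Corin, 4.85. SELP, the adhesion molecule P-selectin, was at 48.7 and 46.1 against 3.09 and 2.47 CPM, and THBS1, thrombospondin 1, at 94.3 and 89.8 against 5.63 and 5.61 CPM.

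The lipid droplet proteins PLIN4 and PLIN5 rose by 5.41 and 4.59, to 12.3 and 11.5 CPM and 8.18 and 10.96 CPM. LRRC32, which holds latent TGF-beta on the cell surface, was at 19.8 and 21.5 CPM with both agents against 1.03 and 1.07 CPM with Corin, 4.30 (SE 0.13). The chemokine CCL24 rose by 4.93 and the axonemal dynein DNAH17 by 4.04. The pseudogene SLC2A3P1 had 8.18 and 6.07 CPM with both agents and 0 counts with Corin, at least 163-fold higher against the floor, but reads of a pseudogene can belong to its parent and its call was lost with 8 libraries in the fit (adjusted p 0.111). The parent, SLC2A3, a glucose transporter named for that reason after its values were seen, fell from 127 and 124 to 80.7 and 78.2 CPM. Transcripts that were almost silent with Corin were few: 8 genes had at most 3 counts over the Corin libraries and at least 1 CPM in both combination libraries, and 0 genes showed the reverse. CHST15, a sulfotransferase named after its values were seen, is one of them, with 92 counts against 0.

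**Figure D2:**
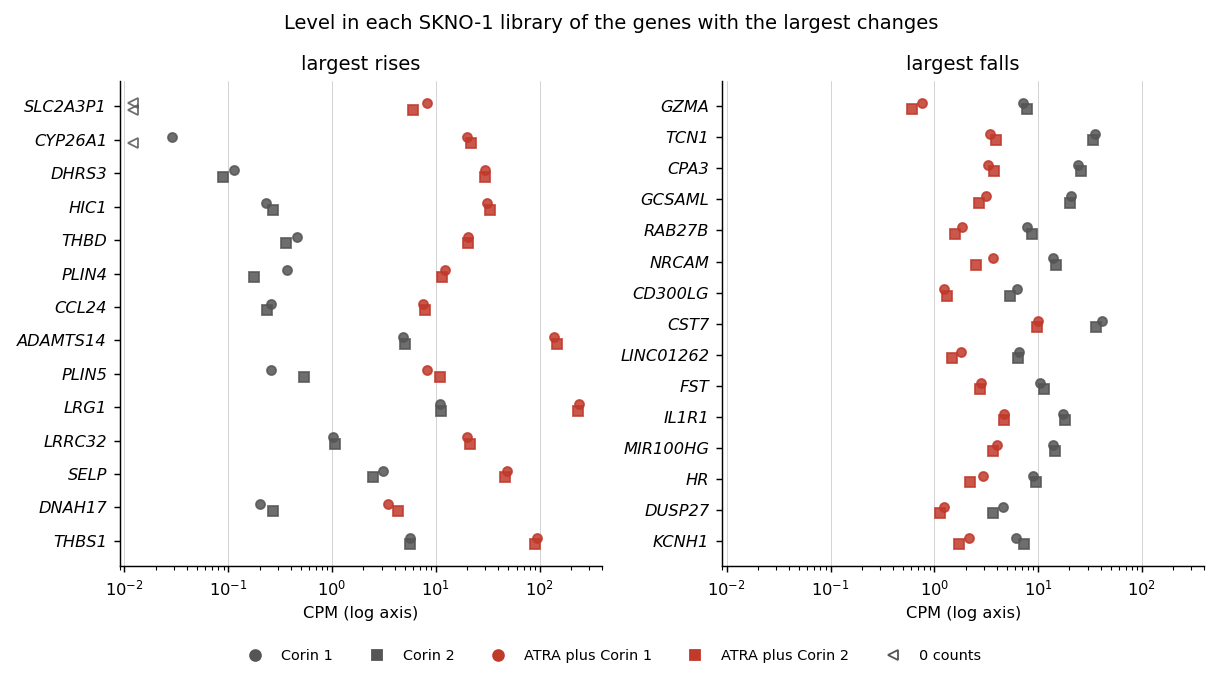
CPM on a log axis (x) of 14 of the 15 genes with the largest rises (left) and the 15 with the largest falls (right), chosen above 2 CPM, in each of the 4 SKNO-1 libraries; open triangles are libraries with 0 counts. In every gene shown both combination libraries lie beyond both Corin libraries, which the choice of genes required, and the rises span a wider range than the falls.

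Among the largest falls, GZMA, a serine protease of killer cells, was at 0.758 and 0.607 CPM with both agents against 7.17 and 7.81 CPM with Corin, -3.45 (SE 0.20, edgeR adjusted p 1.44e-12). TCN1, the vitamin B12 binder of neutrophil specific granules, was at 3.41 and 3.89 CPM with both agents against 35.1 and 33.8 CPM with Corin, -3.24 (SE 0.093). CPA3, a mast cell carboxypeptidase, was at 3.28 and 3.80 CPM with both agents against 24.3 and 26.1 CPM with Corin, -2.83. In each of the 3 both combination libraries lay below both Corin libraries, which the choice of genes required. RAB27B, a GTPase of granule release, fell by 2.27 on the log2 scale, CST7, an inhibitor of granule cathepsins, by 1.98, and FST, follistatin, an activin binder, by 1.97. The interleukin 1 receptor IL1R1 was at 4.64 and 4.65 CPM with both agents against 17.5 and 18.1 CPM with Corin, -1.93. GCSAML (-2.82), the adhesion molecule NRCAM (-2.20), CD300LG (-2.17), the corepressor HR (-1.84), DUSP27 (-1.82) and the potassium channel KCNH1 (-1.80) completed the coding falls, with the lncRNAs LINC01262 (-1.97) and MIR100HG (-1.87).

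Ranked by level per transcript length (TPM) among the strong calls, the 5 rises of highest level were APLP2, SRGN, RPS28, HIST1H4J and RMRP. APLP2, a membrane protein of the amyloid precursor family, was at 3913 and 3883 CPM with both agents against 1519 and 1432 CPM with Corin, 1.40 (SE 0.045). SRGN, the proteoglycan that packs granule proteases, was at 1189 and 1123 CPM with both agents against 378 and 349.9 CPM with Corin, 1.67 (SE 0.044). RMRP, an RNA polymerase III transcript, was at 688 and 779 against 201 and 204 CPM. RMRP, the histone gene HIST1H4J and the ribosomal protein gene RPS28 lost their calls with 8 libraries in the fit (adjusted p 0.0823, 0.118 and 0.0859). Other small RNAs moved with the treatment too: RN7SL and RN7SK genes took 13.9% and 12.2% of counts with both agents and 7.49% and 8.05% with Corin, and protein-coding genes 78.7% and 81.0% against 86.1% and 85.3%. The part of that shift in the results was not tested.

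The 5 falls of highest level by the same measure were CDK6, STXBP5, CD44, ANXA2 and RNASE2. CDK6, the kinase that drives G1 in blood progenitors, was at 667 and 642 CPM with both agents against 1518 and 1481 CPM with Corin, -1.20 (SE 0.040). CD44, the hyaluronan receptor of leukaemic progenitors, was at 229 and 224 CPM with both agents against 545 and 536 CPM with Corin, -1.25 (SE 0.038). STXBP5, a regulator of vesicle fusion, was at 291 and 287 CPM with both agents against 622 and 612 CPM with Corin, -1.09. In each both combination libraries lay below both Corin libraries, which the choice of genes required. ANXA2, a membrane-binding annexin, and RNASE2, an eosinophil granule ribonuclease, fell by 1.06 and 1.19 on the log2 scale.

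Haematopoietic transcription factors changed in both directions. Of the list, 9 of 28 tested genes were higher and 14 lower, with a median of -0.21 (6 and 10 with 8 libraries in the fit). CEBPA, the master factor of granulocytes, was at 26.5 and 23.9 CPM with both agents against 10.1 and 8.64 CPM with Corin, 1.42 (SE 0.090). CEBPB, its relative used in emergency granulopoiesis and monocytes, rose by 1.44 and CEBPE by 1.24. SPI1, or PU.1, rose from 15.5 and 16.01 to 28.6 and 29.5 CPM (0.88, with an edgeR adjusted p of 0.0506 with 8 libraries in the fit). The transcripts of CEBPA, CEBPB and SPI1 have 65.9%, 66.2% and 65.2% GC. Genes with at least 53.5% GC had a median of 0.30 (below), so the sizes of these rises include that trend. BHLHE40, a repressor of activated myeloid cells, was at 119.9 and 125 CPM with both agents against 33.4 and 31.6 CPM with Corin, 1.92. ID1, an inhibitor of helix-loop-helix factors, rose by 1.29, whereas its relative ID3 fell by 1.09 on the log2 scale.

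IKZF2, or Helios, a zinc finger factor kept high in some leukaemic stem cells, was at 52.5 and 52.01 CPM with both agents against 182 and 180.2 CPM with Corin, -1.79 (SE 0.042, edgeR adjusted p 4.32e-20), with no overlap. RUNX2, EGR1 and GATA2 fell by 0.98, 1.29 and 0.64 on the log2 scale, and the ETS factor ERG by 0.46. MYB was at 785 and 768 against 941 and 923 CPM (-0.26). MYC was not called, at 295 and 309 CPM with both agents and 317 and 311 CPM with Corin (-0.058), although scaling by library totals alone called it lower (-0.12). RUNX1 and RUNX1T1, the genes of the fusion, were called at -0.40 and -0.32; both calls were lost with 8 libraries in the fit (adjusted p 0.0775 and 0.167), and RUNX1T1 also without either Corin library (adjusted p 0.208 and 0.235).

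The stem and progenitor list fell: 9 of 13 tested genes were lower and 0 higher, with a median of -0.65, and the same 9 to 0 split was called with 8 libraries in the fit. CD34, the marker of immature blood cells, fell by 3.31 on the log2 scale from 129 counts over the Corin libraries to 12 over the combination. SOX4, a factor of immature cells, was at 148 and 145 CPM with both agents against 326 and 309 CPM with Corin, -1.12 (SE 0.040). CYTL1, a cytokine-like protein of CD34+ cells, was at 12.7 and 12.7 CPM with both agents against 29.3 and 29.8 CPM with Corin, -1.22. FLT3, a growth factor receptor, fell by 0.54. KIT, the stem cell factor receptor, was not called (0.061), but removing the GC trend gave a higher call (0.16).

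Granule genes split. In the azurophil and early neutrophil list 8 of 13 tested genes were higher and 5 lower, with a median of 0.29 (4 and 3 with 8 libraries in the fit). PRTN3, proteinase 3, was at 63.1 and 70.5 CPM with both agents against 13.4 and 12.4 CPM with Corin, 2.37 (SE 0.068). AZU1, azurocidin, rose by 1.17 (with 8 libraries in the fit adjusted p 0.0546), and MPO, myeloperoxidase, from 1886 and 1776 to 2405 and 2483 CPM (0.42; with 8 libraries adjusted p 0.0929). ELANE, neutrophil elastase, was called at 0.83 but not with the GC trend removed (0.16, adjusted p 0.153). LYZ, lysozyme, rose by 0.28. The falls were CST7, RNASE2, CTSG (-0.38), CTSC (-0.13) and MS4A3, a membrane protein of early granulocyte precursors (5.43 and 6.32 CPM with both agents against 17.6 and 15.6 CPM with Corin, -1.49). CTSG lost its call without the first combination library (adjusted p 0.0623).

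Most markers of late neutrophils were too low to test: 9 of the 22 genes in that list could be tested, and 7 had 0 counts in all 4 libraries; 4 rose and 1, TCN1, fell. CSF3R, the G-CSF receptor, was at 73.7 and 78.6 against 52.8 and 52.9 CPM (0.53), and CXCR2, a receptor for neutrophil chemokines, at 13.2 and 11.9 against 8.75 and 8.17 CPM (0.56). With all 8 SKNO-1 libraries in the fit, 0 of the list were called higher; the adjusted p of CSF3R was 0.06 there. The phagocyte oxidase list had 5 of 7 genes higher and 1 lower, with a median of 0.42, but with 8 libraries in the fit 0 were higher. CYBA, the p22 subunit, was at 67.1 and 67.1 CPM with both agents against 33.5 and 32.4 CPM with Corin (1.03), and NCF1, the p47 subunit, at 1.96 and 1.67 against 0.800 and 0.802 CPM (1.17; with the GC trend removed 0.63, adjusted p 0.0875).

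Of 17 leukocyte adhesion genes tested 12 were higher and 4 lower, with a median of 0.52 (7 and 2 with 8 libraries in the fit). ITGAM, or CD11b, the integrin used as the marker of ATRA-driven differentiation, was at 117 and 115 CPM with both agents against 37.2 and 34.3 CPM with Corin, 1.70 (SE 0.048, edgeR adjusted p 1.82e-18). Its partner ITGB2 rose from 14.9 and 13.96 to 23.1 and 22.6 CPM (0.66) and the related chain ITGAX by 0.82. ITGA5, the fibronectin receptor chain, was at 464 and 454 CPM with both agents against 214 and 204 CPM with Corin, 1.13. SELPLG, the ligand of P-selectin, rose by 1.18 and ICAM1 by 1.09. Among the falls were CD44 and ITGA6, a laminin receptor chain (44.3 and 44.4 CPM with both agents against 86.97 and 80.8 CPM with Corin, -0.92).

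Monocyte and macrophage markers moved in both directions: 4 of 14 tested were higher and 5 lower (4 and 3 with 8 libraries in the fit). For so short a list these counts lie near the shares over all genes (22.7% higher and 21.0% lower). The median was -0.20, while 12 more were too low to test and 7 were at 0 counts. CSF1R, the M-CSF receptor, was at 10.8 and 10.4 CPM with both agents against 4.12 and 3.18 CPM with Corin, 1.53 (SE 0.13). CD14, the lipopolysaccharide coreceptor, was at 0.821 and 0.820 against 0.114 and 0.0891 CPM (2.96), so it stayed under 1 CPM. TREM1, an activating receptor, rose by 1.14 and CD68, a lysosomal glycoprotein, by 0.75. VCAN, the proteoglycan versican, was at 18.9 and 17.6 CPM with both agents against 49.7 and 44.6 CPM with Corin, -1.37, and the costimulatory ligand CD86 at 25.3 and 26.02 against 46.96 and 40.4 CPM (-0.77). The scavenger receptor CD163 was called at -2.20 from 1.0003 and 0.446 CPM with Corin and 0.126 and 0.182 CPM with both agents; the call was lost without the first Corin library (adjusted p 0.168) and with 8 libraries in the fit (adjusted p 0.0578).

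Of 20 inhibitory and activating surface receptors tested 11 were higher and 4 lower, with a median of 0.57 (6 and 2 with 8 libraries in the fit, 9 and 2 with the GC trend removed). LILRA5, an activating immunoglobulin-like receptor, was at 4.83 and 4.74 CPM with both agents against 0.200 and 0.386 CPM with Corin, 4.02. CD300LF, a lipid-binding inhibitory receptor, was at 78.3 and 73.2 CPM with both agents against 24.04 and 23.5 CPM with Corin, 1.67 (SE 0.056). SIRPA, which binds the self signal CD47, rose by 1.26 and the collagen receptor LAIR1 by 0.62, whereas the lectin CLEC4A fell by 1.37 on the log2 scale. In the Fc and complement list 9 of 19 were higher and 7 lower. CR1, the receptor for C3b, was at 164 and 158 CPM with both agents against 16.8 and 16.99 CPM with Corin, 3.25 (SE 0.050, edgeR adjusted p 2.11e-23), and CFD, complement factor D, rose by 1.38. The Fc gamma receptors went the other way, with FCGR2A at -0.34 and FCGR1A at -0.41; FCGR2A, FCGR2B and FCGR2C are near-identical, so their division of reads is uncertain.

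Of the Toll-like receptor list 9 of 22 tested genes were higher and 6 lower (9 and 2 with the GC trend removed, 7 and 1 with 8 libraries in the fit), with a median of -0.043. The nucleic acid and flagellin sensors TLR3, TLR5 and TLR8 rose by 1.94, 2.05 and 1.56 from under 1 CPM to about 2 CPM, though TLR8 was not called with 8 libraries in the fit (adjusted p 0.0666). TLR4, the lipopolysaccharide receptor, was at 61.9 and 55.9 against 41.3 and 38.6 CPM (0.56). The kinase IRAK1 rose by 1.24, while the adaptor MYD88 fell by 0.71 on the log2 scale. Chemokine genes were higher in 8 of 13 tested and lower in 1, with a median of 0.43 (4 and 0 with 8 libraries in the fit; 0 were lower in DESeq2, and without the second combination library or either Corin library): CCR2, the receptor of classical monocytes, was at 7.39 and 8.50 CPM with both agents against 0.943 and 1.37 CPM with Corin, 2.78, next to CCL24. The fractalkine receptor CX3CR1 was called lower at -0.73, a call lost without the second combination library or without either Corin library (adjusted p 0.185, 0.0533 and 0.0634).

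Cytokine feedback was led by SOCS3, an inhibitor of JAK-STAT signalling, at 109.9 and 123 CPM with both agents against 28.4 and 26.1 CPM with Corin, 2.09 (SE 0.059). Of 21 tested genes for cytokine receptors and their feedback 9 were higher and 4 lower (5 and 4 with 8 libraries in the fit), and the falls included IL1R1, IL5RA and the cytokine OSM (2.37 and 2.73 CPM with both agents against 6.97 and 7.07 CPM with Corin, -1.46). IRF1, the interferon regulatory factor that ATRA is known to induce, was at 103 and 104 CPM with both agents against 27.04 and 28.6 CPM with Corin, 1.90 (SE 0.049, edgeR adjusted p 4.15e-19). The interferon-stimulated list had 11 of 29 higher and 5 lower (3 and 2 with 8 libraries in the fit, 7 and 3 with the GC trend removed), with a median of 0.18. DESeq2 called 5 of the list higher, and 7 were higher without the second Corin library. RSAD2, or viperin, was at 26.03 and 27.7 CPM with both agents against 83.2 and 79.8 CPM with Corin, -1.60, whereas OAS3, an antiviral synthetase, rose by 1.18. MHC class II genes had 0 of 8 higher and 2 lower (1 with 8 libraries in the fit), with HLA-DRA at -0.51.

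Genes of eosinophils, basophils and mast cells were checked as signs of other cell types: 3 of 15 tested were higher and 6 lower, with a median of -0.12. PRG2, the eosinophil major basic protein, was at 6.35 and 7.20 CPM with both agents against 23.1 and 21.4 CPM with Corin, -1.72. HDC, which makes histamine, and FCER1A, the IgE receptor chain, fell by 2.00 and 1.21 on the log2 scale beside CPA3, and RNASE3 fell by 1.16. CLC, the Charcot-Leyden crystal protein, and the eotaxin receptor CCR3 rose instead, by 1.30 and 4.07; CCL24 is itself an eotaxin. Erythroid and megakaryocyte genes had 1 of 7 tested higher (NFE2, 0.68) and 0 lower, with the globins HBA1, HBB and HBG1 too low to test; 2 were lower with library totals alone, and 2 were higher and 1 lower with the GC trend removed. Lymphoid genes had 2 of 9 higher and 2 lower, with CD3D and CD3E too low to test; 1 was higher without any single library, 1 was lower without the first combination or the second Corin library, and with 8 libraries in the fit 1 and 0 were called.

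Replication and mitosis genes went both ways. Of 31 tested, 12 were higher and 13 lower, with a median of 0.017, and with 8 libraries in the fit 4 and 5 were called. The helicase subunits MCM5 and MCM2 were at 106 and 108 against 60.2 and 59.1 CPM (0.84) and 192 and 200.1 against 129 and 131 CPM (0.59). The mitotic genes MKI67 and TOP2A were at -0.31 (with 8 libraries adjusted p 0.125) and -0.35. CDK6 was the only member past 1. Of the cyclin-dependent kinase inhibitors CDKN2D, or p19, rose by 1.08, while CDKN1A, or p21, fell from 20.3 and 17.3 to 11.6 and 12.5 CPM (-0.64) and CDKN1C, or p57, by 1.93 on the log2 scale. In the BCL2 family 7 of 14 were higher and 2 lower, but 1 and 1 with 8 libraries in the fit, and 1 was lower without the first combination library. BCL2 itself, which blocks apoptosis, was at 53.9 and 49.9 CPM with both agents against 84.5 and 85.2 CPM with Corin, -0.71 (SE 0.048). The proapoptotic BAD and the antiapoptotic BCL2A1 rose by 1.15 (with 8 libraries adjusted p 0.0905) and 0.86, and MCL1 was called at -0.12, but not with the GC trend removed (adjusted p 0.406) or without the first combination library (adjusted p 0.0602).

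Of the cholesterol list 18 of 26 tested genes were higher and 2 lower, with a median of 0.23 (17 and 2 with the GC trend removed, and 8 and 1 with 8 libraries in the fit); 1 was lower without the first Corin library. ABCA1, the pump that loads cholesterol onto apolipoprotein, was at 180.1 and 169 CPM with both agents against 27.7 and 28.4 CPM with Corin, 2.64 (SE 0.048, edgeR adjusted p 5.98e-22). NR1H3, the oxysterol receptor LXR alpha and a partner of RXR, was at 14.8 and 14.1 CPM with both agents against 5.34 and 5.23 CPM with Corin, 1.45. SREBF1, a lipid synthesis factor, rose by 1.19, MVD by 1.14 and DHCR7 by 0.85, both enzymes of sterol synthesis. Lysosomal genes had 11 of 26 higher and 6 lower (6 and 5 with the GC trend removed, 3 and 2 with 8 libraries in the fit), none past 1, with the glucuronidase GUSB at 0.88.

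TGF-beta family genes were higher in 7 of 31 tested, near the 22.7% over all genes, and lower in 11 (21.0% over all genes). The median was -0.10 and 13 were not called, so the members named are examples that set no direction for the family. Beside LRRC32, the ligand gene TGFB1 was called at 0.74, but with the GC trend removed at 0.22 (adjusted p 0.0663), and the signal carrier SMAD3 rose by 0.81. The antagonists FST and NOG fell by 1.97 and 1.47 on the log2 scale, and LTBP1, which stores latent TGF-beta in the matrix, by 1.42. Of 8 diacylglycerol kinases 4 were higher and 3 lower, but 1 and 0 with 8 libraries in the fit, and 2 were higher in DESeq2 and without the second combination or the first Corin library. With the GC trend removed 1 was lower. DGKI stood apart at 54.4 and 55.8 CPM with both agents against 7.26 and 8.14 CPM with Corin, 2.84 (SE 0.072). DNA methylation genes had 3 of 9 higher and 2 lower (2 and 1 with 8 libraries in the fit, 2 and 4 with the GC trend removed), with the eraser TET2 at 76.7 and 74.1 CPM with both agents against 126 and 130.03 CPM with Corin, -0.77. HOX genes were nearly silent: 31 of 34 in the list were too low to test, and 22 had 0 counts in all 4 libraries. Early response and heat shock genes had 9 of 17 higher and 6 lower (5 and 5 with the GC trend removed, 4 and 3 with 8 libraries in the fit), led by the chaperone HSPA1A (1.24) and by falls of EGR1 and ATF3 (-1.45).

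**Figure D3:**
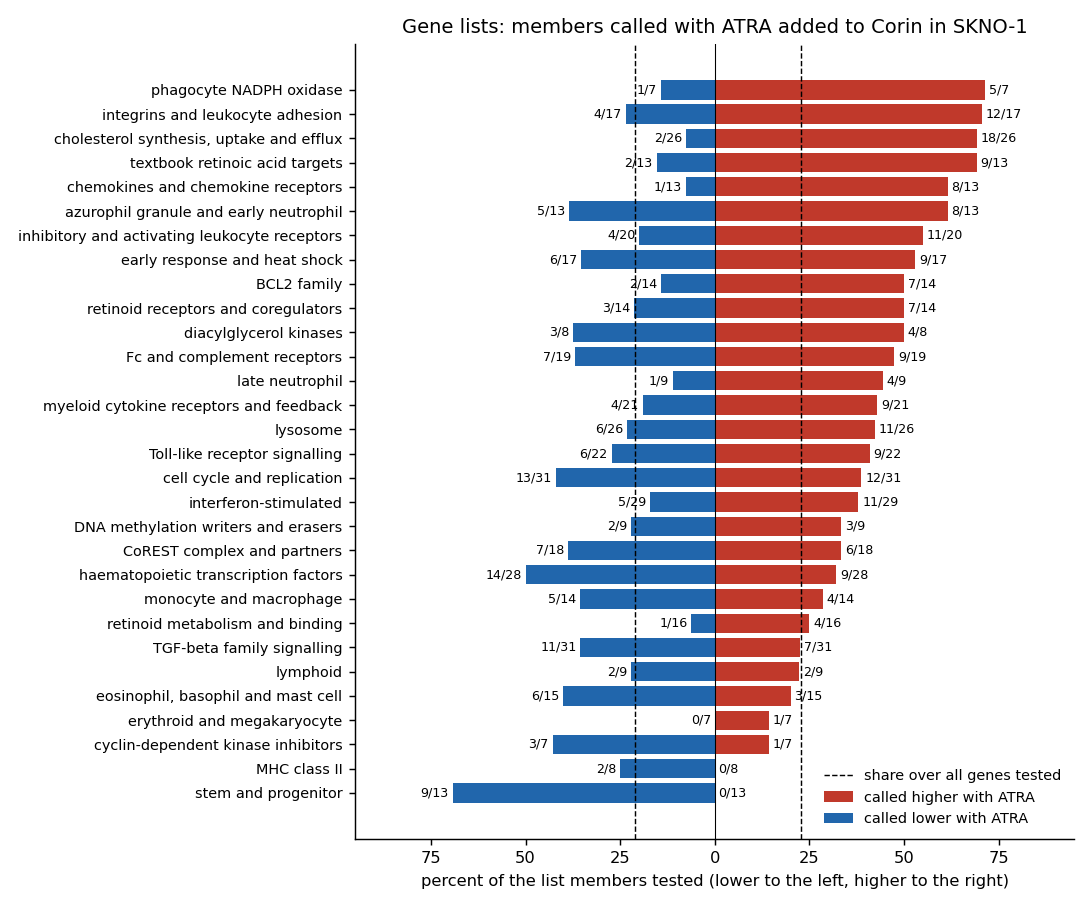
Percent of the tested members of each of 30 gene lists (y, those with at least 7 members tested) that were called higher (red, right) or lower (blue, left) with ATRA added to Corin in SKNO-1; numbers beside bars are members called of members tested, and dashed lines are the shares over all 17049 genes (22.7% higher, 21.0% lower). Lists with few members can lie far from the lines by 1 or 2 genes; the stem and progenitor list has 0 of 13 higher and the retinoic acid target list 9 of 13.

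Fold changes followed the GC content of the transcripts. Over 9559 genes with a mean log2 CPM above 3, Pearson's r across genes was 0.55, as a description, since genes share libraries and are not independent. The median fold change was -0.18 in the 2389 genes with at most 40.6% GC and 0.30 in the 2394 with at least 53.5%. Calls followed: 114 genes were higher and 1438 lower at low GC, and 1635 higher and 102 lower at high GC. Strong calls were less uneven at low GC (12 higher, 14 lower) than at high GC (112 higher, 2 lower). With the trend removed 4923 genes were called, 2512 higher and 2411 lower, of which 3807 were among the 7440 and 3719 of these kept their direction. Of all 7440 called genes 6532 kept their direction. The 944 strong genes all kept theirs, which choosing large changes made likely, and 769 kept their call. At an absolute change of at least 1 the count was then 400 higher and 239 lower. The 2 libraries of a group did not differ this way: the same correlation for library 1 minus library 2 was -0.12 with both agents and -0.076 with Corin. Unless stated, fold changes of single genes are given with the trend left in, so rises at high GC include it. ELANE, at 66.8% GC, went from 0.83 to 0.16 with the trend removed. PRTN3, CFD and BAD have 66.4%, 65.1% and 66.3% GC.

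**Figure D4:**
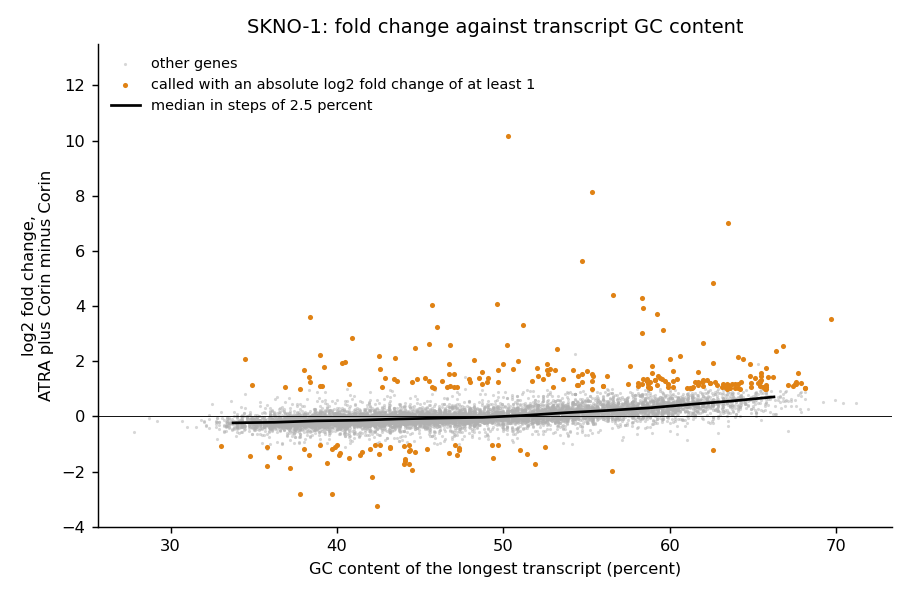
Log2 fold change, ATRA plus Corin minus Corin (y), against the GC percent of each gene's longest GENCODE transcript (x) for 9587 SKNO-1 genes with a mean above 8 CPM; orange points are genes called with an absolute change of at least 1, and the line is the median in steps of 2.5 percent. The line climbs from below 0 at low GC to above 0 at high GC, and the largest rises stand far above it.

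To see which changes were particular to SKNO-1, the same step was taken in U-937 and the difference was tested as an interaction over 8 libraries. The lines also differ in medium, since GM-CSF was given to SKNO-1 alone, so line and medium cannot be told apart. Of 19290 genes the effect was called higher in U-937 for 4018 (20.8%) and lower for 4547 (23.6%). Of the 681 strong rises in SKNO-1, 479 were above 0 in U-937, where 51.5% of all genes were. There 337 of the rises were called higher and 88 lower. Between the lines 336 of them differed, against 8565 of all 19290 genes. The median of the 681 rises in U-937 was 0.79, against 0.038 over all genes. The 263 strong falls had a median of 0 in U-937, with 47 called lower and 47 higher there. Between the lines 118 of the falls differed, a share near that over all genes. The shares of all genes called higher or lower in U-937 are not given here.

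HIC1 and THBD rose in both lines. HIC1 was at 23.02 and 20.98 CPM with both agents and 0.103 and 0.128 CPM with Corin in U-937, and the difference of effects, U-937 minus SKNO-1, was 0.55 (SE 0.51, edgeR adjusted p 0.472). THBD was at 466 and 469 against 6.26 and 7.47 CPM there, a difference of 0.46 (SE 0.28, adjusted p 0.219). GZMA, CST7 and CDK6 were lower in both, at -3.97, -2.27 and -1.36 in U-937, with adjusted p for the difference of 0.236, 0.115 and 0.363, which does not show that they responded alike. RARB had 23.9 and 31.1 CPM with both agents and 0 counts with Corin in U-937 as well, so its difference has no usable test. CYP26A1 had 0 counts in all 4 U-937 libraries; its rise was seen in SKNO-1 alone, and the interaction test cannot weigh a line without counts.

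Several rises were larger in SKNO-1. DHRS3 was at 203 and 215 CPM with both agents and 7.60 and 5.52 CPM with Corin in U-937, a higher level with Corin and a smaller rise (4.98 against 8.13 in the fit over both lines, difference -3.15, adjusted p 2.05e-06). LRG1 was at 122 and 137 against 51.7 and 43.99 CPM, a difference of -2.98 (SE 0.13), and SRGN rose by 0.47 against 1.66 (difference -1.19). Other genes moved apart. CD44 and STXBP5 fell in SKNO-1 and rose in U-937 (0.34 and 0.90), and IL1R1 rose there by 1.01. APLP2 rose more in U-937, from 601 and 518 to 3585 and 4011 CPM (difference 1.37, SE 0.16). MCM5 and MCM2, which rose in SKNO-1, were called at -2.54 and -3.56 in U-937 (differences -3.38 and -4.15, adjusted p 3.63e-13 and 9.09e-14). Most of the line differences ranked highest had a group near 0 counts, so levels are given: TERT, the telomerase enzyme, was at 6.54 and 7.65 against 4.32 and 4.84 CPM in SKNO-1 and at 0 and 0.0344 against 0.927 and 1.25 CPM in U-937. IGLL1, a surrogate light chain of B-cell precursors, was at 25.6 and 26.1 against 37.8 and 39.8 CPM in SKNO-1 and at 0.0295 and 0 against 2.76 and 2.62 CPM in U-937. GPR34, LBP, PTGES, CADM1, SLC2A12, P2RY14, KCNN2, C17orf51 and WWC1 also ranked there; leaving out 1 SKNO-1 library ended the calls of PTGES (Corin 2), CADM1 (Corin 1), KCNN2 (combination 2) and C17orf51 (combination 1), with adjusted p of 0.9999 or 1.

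**Figure D5:**
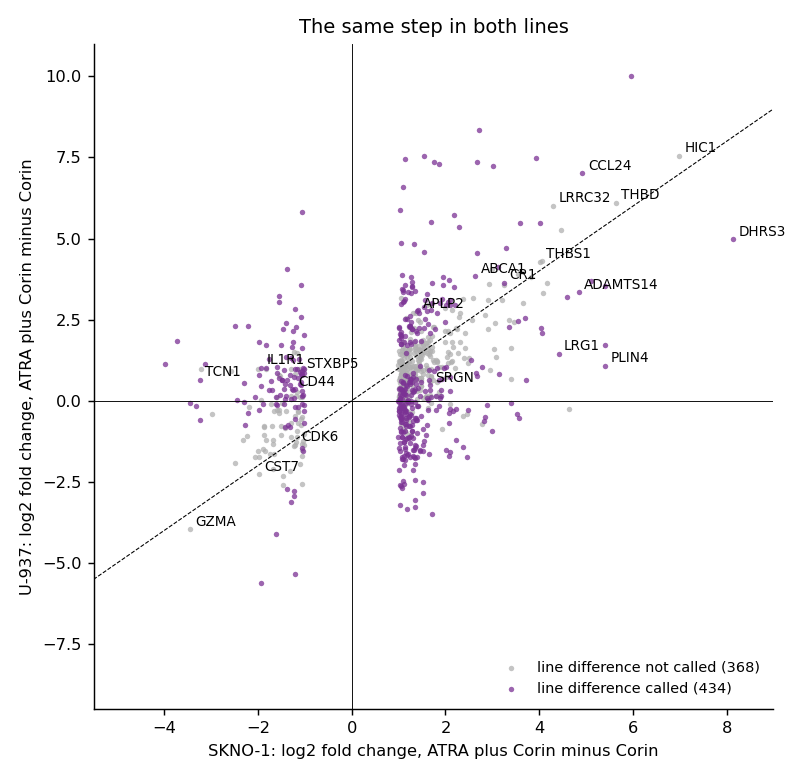
Log2 fold change, ATRA plus Corin minus Corin, in SKNO-1 (x) and U-937 (y) for 802 of the 944 genes called in SKNO-1 with an absolute change of at least 1; the other 142 had a group at 0 counts. Purple points (434) differed between the lines by the interaction test, and the dashed line marks equal effects; the SKNO-1 axis was used to choose the points, so their place along it is no result, and the U-937 values lie on both sides of 0.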

How the data were processed

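Total RNA of SKNO-1 and U-937 cells was sequenced in 16 libraries. The unit of the deposited table is estimated counts per gene; the authors made them with Trimmomatic, STAR and RSEM on hg38, per the submitters' processing notes, with versions and annotation release not given in the sources used here. Of the positive values 20.1% were not whole, and all were rounded. The authors also deposited RSEM's TPM per library, per the file headers, used only to rank levels between genes. Near-identical gene copies such as RN7SL can share reads. The kit keeps strand, per the labels' protocols, but whether counting used it is not given in the sources used here, so antisense and overlapping genes are uncertain.

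Genes passing filterByExpr in the 4 SKNO-1 libraries were scaled by TMM and tested with edgeR 4.0.16 (quasi-likelihood, robust) in R 4.3.3, with Benjamini-Hochberg adjustment over all genes; a 4-group fit over 8 libraries gave the line difference. Library totals were 32.8 to 34.6 M and the common biological coefficient of variation was 4.00%. Alternatives used DESeq2 1.42.0, other scalings, filters, more libraries, a replicate block, GC offsets (lowess span 0.3) and leaving out each library. The test was checked on simulated counts. Ratios of genes with 1 to 3 counts have exact 95% intervals, and floors are 3 counts over a group; both cover counting error only. Gene positions and GC content are from GENCODE, promoters from RefSeq on GRCh38.p14. Same-numbered libraries did not deviate in the same direction (correlation -0.112 in SKNO-1 and -0.421 in U-937), so numbers were not used as pairs in the main fits.

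The comparison and the gene lists were chosen with earlier results of these data known. Genes named were the 15 largest rises and falls among called genes with at least 2 CPM on average and no overlap, the 5 of highest TPM in each direction past 1, the 6 largest line differences in each direction, list members, and the receptors and enzymes the treatments name. Some genes that these rules pick are not reported here. DMSO and ATRA libraries enter only as an alternative that shares the spread.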

Additional observations from a re-analysis of the deposited data

Results flagged for a closer look

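For 23 of the genes named, the effect of adding ATRA to Corin differed between the lines by the interaction test (edgeR adjusted p under 0.05), with more than 3 counts in every group; 21 come from the ranked genes and 2 from a list. Values are U-937 minus SKNO-1 on the log2 scale. Most of these genes were chosen for a large change in the same SKNO-1 libraries that enter the test. That choice favours a smaller change in U-937, so the numbers of genes in each direction are no result.

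The rise was smaller in U-937, or turned into a fall, for 10 genes that rose in SKNO-1. The lipid droplet genes PLIN4 and PLIN5 differed by -4.33 and -1.37, the retinaldehyde reductase DHRS3 by -3.15, LRG1 by -2.98, ADAMTS14 by -1.50 and DNAH17 by -1.78. The granule proteoglycan SRGN differed by -1.19, RMRP by -1.22, RPS28 by -0.44 and the histone gene HIST1H4J, which was at -1.14 in U-937, by -2.35. The rise was larger in U-937 for the chemokine CCL24 (2.09) and for APLP2 (1.37).

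Falls of SKNO-1 were smaller in U-937 or turned into rises for 8 genes. TCN1 differed by 3.89, IL1R1 by 2.95, FST by 2.78, STXBP5 by 1.99, LINC01262 by 1.68, CD44 by 1.60, RAB27B by 1.52 and ANXA2 by 0.95.

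GPR34, a lysophospholipid receptor, differed by 7.76: it was at 52.9 and 58.5 CPM with both agents and 0.489 and 0.479 CPM with Corin in U-937, and at 0.758 and 0.395 against 1.20 and 0.980 CPM in SKNO-1. MCM5 and MCM2, replication helicase genes, rose in SKNO-1 and fell in U-937 and differed by -3.38 and -4.15; they were picked from their list after the values were seen. The part of medium, depth and RN7SL share in these differences was not tested.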

How the results depend on the processing

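The count of 7440 called genes stayed within 1.5 times under every alternative except 3: 1822 with all 8 SKNO-1 libraries in the fit, 4923 with the GC trend removed and 4762 with the GC trend removed and the replicate block. The count of 944 strong genes became 523 with 8 libraries and 616 with GC trend and replicate block. The 8-library fit estimates the spread over 4 groups; the cause of its lower count was not tested. Leaving out each SKNO-1 library gave 6143 to 6735 called and 887 to 1002 strong genes, and leaving out each library of either line gave 7358 to 8439 genes with a line difference (8565 with all), where the lone sample is assumed to vary like the others. DESeq2 called 5279 genes, 642 strong. With the replicate block 7573 genes were called in SKNO-1, 949 strong, and 7334 differed between lines; same-numbered deviations correlated at -0.112 among the SKNO-1 libraries and -0.421 among those of U-937. A crossed pairing, added after seeing the data, gave 7742, 986 and 9689. The block ended 1 call among 172 genes followed. RARG turned to -0.00095 with the GC trend removed; 9 others lost their calls, and RXRA (-0.48, adjusted p 0.00231) and KIT gained one. The 8-library fit ended 29 calls. RARG and CX3CR1 also lost theirs in DESeq2. Depth limits genes under about 1 CPM, where a change from 0 has only a lower bound.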

Other observations

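Strongly changed genes also lay side by side. This pattern was looked for after the values were seen and is a description with no test. With tested genes ordered along each chromosome, 24 runs of at least 3 neighbours changed by at least 1 in the same direction, 19 higher and 5 lower, with 86 genes in all and 6 genes in the longest. On chromosome 19, between 4502192 and 4581776, the lipid droplet genes PLIN4 (5.41) and PLIN5 (4.59), LRG1 (4.42) and SEMA6B, a semaphorin (3.54), rose together with a clone-named gene between them. SEMA6B had a mean of 7.73 CPM with Corin and 90.2 CPM with both agents. Overlapping transcripts can share reads here, since strand use in counting is not stated.

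One of the runs with 6 genes, on chromosome 17 between 74466399 and 74769353, held the receptor genes CD300A, CD300C and CD300LF. It also held the small GTPase gene RAB37, whose mean went from 52.0 to 163 CPM. CD300A and CD300C stayed under 1 CPM, with means of 0.0874 and 0.145 CPM with Corin and 0.839 and 0.462 CPM with both agents. On chromosome 10 the killer cell protein perforin, PRF1, lay beside ADAMTS14, with a mean of 0.0577 CPM with Corin and 3.79 CPM with both agents, while the killer cell protease GZMA fell. On chromosome 2, between 102064544 and 102452565, neighbouring genes of the interleukin 1 receptor family fell. These were IL1R1 (-1.93), IL1RL1, the interleukin 33 receptor (-3.22), IL18R1 (-1.05) and IL18RAP (-1.77). The run was picked for these falls, so it does not stand for the whole family. IL18R1 had a mean of 22.3 CPM with Corin and 10.7 CPM with both agents.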
